A study of Mus musculus with 27 samples.

Results

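Astrocyte nuclei that held little or no Gfap mRNA were followed in single-nucleus RNA-seq data from the hippocampi of 27 mice. A nucleus belonged to the set when at least 4 of the 8 astrocyte genes Slc1a3, Bmpr1b, Atp13a4, Fgfr3, Gja1, Ntsr2, Grin2c and Acsbg1 were detected and at most 1 UMI (a counted mRNA molecule) of Gfap was seen. At most 1 UMI over the neuronal genes Slc17a7, Gad1 and Gad2 and at most 1 over the oligodendrocyte genes Mog and Mag were also allowed. These limits, applied to nuclei with 200 to 4000 detected genes and at most 5% mitochondrial UMIs, chose 19789 nuclei out of 241938 barcodes, 221281 of which passed the gene and mitochondrial limits. A further 5585 nuclei met every limit except that on Gfap and are called high-Gfap nuclei, which makes 25374 astrocyte nuclei in all. The nuclei were chosen by measured counts of these genes, so within the chosen nuclei the 14 genes of the rule are described without a test. The share of astrocyte nuclei that met the Gfap limit and the Gfap level over all astrocyte nuclei are compared between genotypes, which the rule did not use.

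The study crossed mice carrying the P301S transgene (mutant human tau under the Prnp promoter) with mice lacking Cgas, which encodes a sensor of cytosolic DNA. Each library is 1 mouse, and its nuclei were sorted from frozen hippocampus by DNA stain. Group names follow the labels. Without the transgene there were 5 Cgas+/+ mice (3 male, 2 female), 2 male Cgas+/- mice and 2 male Cgas-/- mice. With the transgene there were 6 mice of each Cgas genotype, named P301S Cgas+/+, P301S Cgas+/- and P301S Cgas-/-, and each group had 3 males and 3 females. The mice came from crosses between F1 litters and had been through behavioural tests. Their age is given inconsistently, as 8 to 9 and as 9 to 10 months. The Cgas deletion is not restricted to a cell type, and every group carries either the mouse's own tau or that plus the transgene. The label of Cgas could not be checked from the counts: Cgas mRNA (listed as Mb21d1) gave 41 UMIs over all low-Gfap nuclei, 0 to 5 in a library, and 36.4 to 50.2 CPM (UMIs per 1000000 UMIs of the nuclei summed) in microglia nuclei of the 6 libraries labelled P301S Cgas-/-, where the 6 labelled P301S Cgas+/+ held 22.9 to 54.1 CPM, so the counts were not lower with the labelled deletion. A 3' tag can lie outside the deleted part of a gene and then checks nothing.

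Astrocytes clear glutamate and potassium from the space around synapses, couple to one another through gap junctions, supply lipids and lactate, and wrap vessels with water channels. Gfap encodes an intermediate filament that astrocytes make more of when they become reactive after injury or in neurodegeneration. Low Gfap here means at most 1 UMI counted in a nucleus, and GFAP protein was not measured. Type I interferons act on astrocytes through a receptor whose signal reaches a complex of transcription factors that includes IRF9, which switches on genes for antiviral proteins and antigen presentation by binding an element in promoters with repeated GAAA cores.

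That element could be read in the promoters of interferon genes whose mRNA the low-Gfap nuclei held. RefSeq promoters (GRCm38.p6, 250 bases before to 50 after a gene's start) were searched on both strands for GAAANNGAAA, and the 3 below are shown because they belong to the interferon genes of smallest p in the tau comparison for which 150 bases outside annotated exons held a match. Each is written along the gene's strand, with matches to the motif or its reverse complement in capitals. Gbp3 and Gbp7 encode interferon-induced GTPases, and Trim30a encodes a protein that restrains NF-kB signalling. The Gbp3 window on the plus strand is chr3:142559876-142560025, holds 2 overlapping matches and ends 18 bases before the start. The Trim30a window on the minus strand is chr7:104465194-104465343, and the Gbp7 window on the plus strand is chr3:142530186-142530335.
Gbp3: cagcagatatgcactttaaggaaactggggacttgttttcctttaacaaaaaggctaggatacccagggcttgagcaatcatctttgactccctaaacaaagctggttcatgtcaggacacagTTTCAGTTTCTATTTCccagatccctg
Trim30a: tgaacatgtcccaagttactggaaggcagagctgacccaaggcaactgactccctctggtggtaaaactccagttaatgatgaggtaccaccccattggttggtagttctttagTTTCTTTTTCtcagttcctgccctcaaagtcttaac
Gbp7: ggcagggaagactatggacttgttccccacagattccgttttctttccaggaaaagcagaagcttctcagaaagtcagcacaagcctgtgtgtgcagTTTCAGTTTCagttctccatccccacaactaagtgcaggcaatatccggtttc
Of 36 tested interferon genes with a promoter in the table, 18 (50%) held a match, as did 19 of their 45 promoters (42.2%). Among all 32851 promoters 1131 (3.44%) held one. A match is a run of letters and was not tested as a binding site.

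The astrocyte label was checked with genes the rule did not use. Slc1a2, the transporter GLT-1, was detected in 99.9% of the low-Gfap nuclei and in 18.5% of microglia nuclei, which were chosen, like those of other types, by their own markers. It was detected in 76.0% of excitatory neuron nuclei. The median depth was 3282 UMIs per nucleus in the low-Gfap, 10386 in excitatory neuron, 2029 in oligodendrocyte and 1680 in microglia nuclei. As a level, Slc1a2 stood at 9383 CPM in the low-Gfap nuclei, 354 CPM in the neurons, 116 CPM in oligodendrocyte and 136 CPM in microglia nuclei. Aqp4, the water channel of astrocyte endfeet, was seen in 41.5%, and Gpc5, a heparan sulfate proteoglycan of the cell surface, in 99.2%. Csf1r, a receptor of microglia, averaged 7.09 CPM against 1027 CPM in microglia nuclei. Genes of the rule were frequent by construction: Slc1a3, the glutamate transporter GLAST, was detected in 99.6% of the low-Gfap nuclei, Bmpr1b, a BMP receptor, in 85.1% and Atp13a4, a P-type ATPase, in 63.4%.

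Members lay at and inside the limits. All 8 astrocyte genes were detected in 10.6% of the nuclei, 6 of them in 28.6% and only the required 4 in 14.2%. No Gfap UMI was found in 15609 nuclei (78.9%) and exactly 1 in 4180 (21.1%). Just outside the rule lay 1821 astrocyte nuclei with 2 Gfap UMIs and 1879 nuclei with 3 astrocyte genes that met the other limits. Depth followed Gfap across these edges, since the median nucleus held 3241 UMIs with no Gfap UMI, 3464 with 1, 3729 with 2 and 5198 with 6 or more. One neuronal UMI was present in 2104 members (10.6%), 1 oligodendrocyte UMI in 997 (5.04%), and 1127 (5.70%) were among the nuclei that Scrublet scored as likeliest doublets.

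The libraries held 46091490 to 79484316 UMIs and gave 122 to 1484 low-Gfap nuclei each, with a median of 711. Summed per mouse, these nuclei carried 528277 to 4735506 UMIs. The median UMIs per low-Gfap nucleus ran from 2755 to 4467 over the libraries. Members' expression correlated between any 2 libraries at 0.916 to 0.983 across 7688 genes, which are not independent replicates. Of 234470 barcode strings 7324 occurred in more than 1 library. A pair of libraries shared at most 48 strings and at most 0.570% of the barcodes of its smaller library. The matrix headers name software version 3.0.2 in 12 libraries, all from males, and 3.1.0 in the other 15, so each comparison was also made within a version.

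Low-Gfap nuclei made up most astrocytes in mice without the transgene and a smaller and more variable share with it. In the 5 Cgas+/+ mice they were 93.7%, 85.1%, 94.0%, 93.6% and 95.9% of the astrocyte nuclei. In the 6 P301S Cgas+/+ mice the lowest, median and highest shares were 34.5%, 67.9% and 82.5%. All 6 lay below every Cgas+/+ mouse, so the groups did not overlap. The mean fell from 92.4% ± 4.21 (SD, n = 5) to 62.9% ± 17.9 (SD, n = 6), a difference of -29.6 percentage points (exact two-sided permutation test, p = 0.00433, the smallest that 5 against 6 mice allow, adjusted p = 0.0130 over 9 tests). A lower share cannot tell fewer low-Gfap astrocytes from more Gfap RNA per astrocyte, and shallow nuclei meet the Gfap limit more easily, so the share was also taken at equal depth. With each nucleus thinned to 1500 UMIs it was 97.1% ± 1.62 (SD, n = 5) in Cgas+/+ and 81.7% ± 11.8 (SD, n = 6) in P301S Cgas+/+ mice, with 6 of 6 again below all Cgas+/+ mice (exact permutation p = 0.00433, adjusted p = 0.0130).

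**Figure D1:**
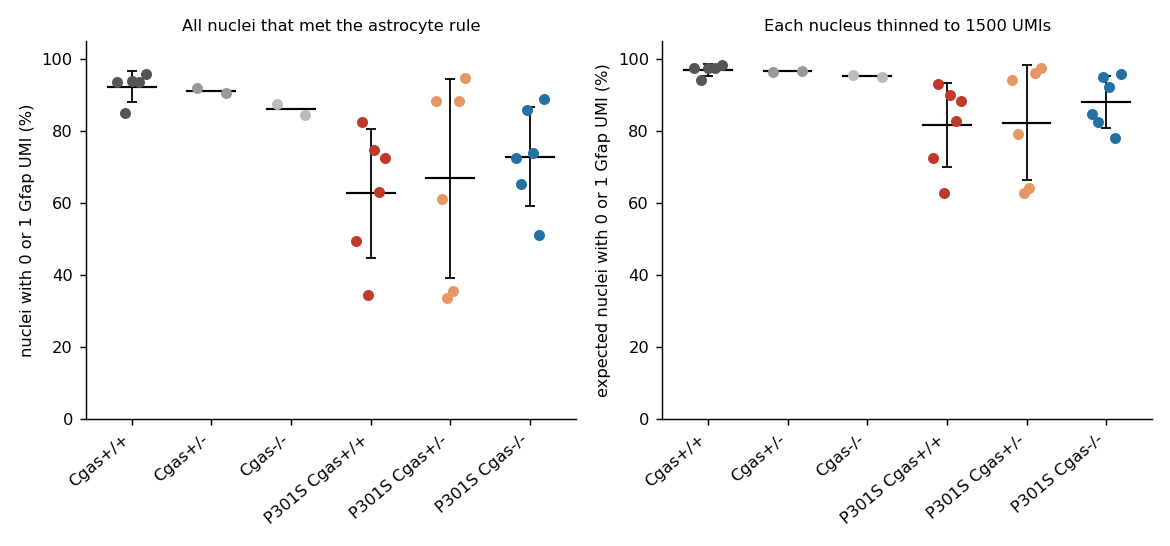
Share of astrocyte nuclei with 0 or 1 Gfap UMI (y axis, percent) in each mouse by genotype group (x axis), as counted (left) and with each nucleus thinned to 1500 UMIs (right), where points are mice, lines are means and error bars are SD for groups of more than 2 mice. As counted, the 5 Cgas+/+ mice sit between 85.1% and 95.9%, while the 6 P301S Cgas+/+ mice sit between 34.5% and 82.5%.

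Loss of Cgas on the P301S background went with a higher mean share that was within the spread between mice. The P301S Cgas-/- mice had shares with a lowest, median and highest value of 51.2%, 73.3% and 89.0%, and 2 of the 6 lay above all P301S Cgas+/+ mice. The mean of 73.0% ± 13.9 (SD, n = 6) was 10.2 percentage points higher than in P301S Cgas+/+ mice (exact permutation p = 0.294, adjusted p = 0.442). At equal depth the difference was 6.40 points (exact permutation p = 0.292, adjusted p = 0.442). In P301S Cgas+/- mice the shares ran from 33.6% to 94.8%, the widest range of the groups, and their mean of 67.0% ± 27.7 (SD, n = 6) differed from P301S Cgas+/+ by 4.13 points (exact permutation p = 0.771, adjusted p = 0.867). Without the transgene the 2 Cgas+/- mice had shares of 92.1% and 90.5% and the 2 Cgas-/- mice 87.6% and 84.7%.

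The level of Gfap mRNA over all astrocyte nuclei, low and high together, comes from the counts that set the share. Its permutation tests, part of the same family of 9, restate those of the share and are not given as further results. It ran from 78.1 to 197 CPM in Cgas+/+ mice and from 219 to 1192 CPM in P301S Cgas+/+ mice, with no overlap. On the log2(CPM + 1) scale the mean rose from 6.73 ± 0.52 (SD, n = 5) to 8.88 ± 0.89 (SD, n = 6), a difference of 2.14. The level was 8.29 ± 0.89 (SD, n = 6) in P301S Cgas-/- mice, 0.59 below P301S Cgas+/+. In P301S Cgas+/- mice it was 8.40 ± 1.63 (SD, n = 6), a difference of -0.48. Within the version 3.0.2 libraries the share differed between P301S Cgas+/+ and Cgas+/+ mice by -23.3 points (exact permutation p = 0.333) and within version 3.1.0 by -33.2 points (exact permutation p = 0.0571). These are the smallest p values that such small sets allow, so neither could pass 0.05.

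Other genes went with the Gfap count of a nucleus on both sides of the limit. Pooled over the 18 P301S libraries, the summed level of the interferon list was 827 CPM in nuclei with no Gfap UMI, 1203 with 1, 1444 with 2, 1790 with 3 to 5 and 1859 with 6 or more. In the 9 libraries without the transgene it went from 512 to 952 CPM over the same steps. The pan-reactive list, genes that astrocytes raise in several kinds of injury, went from 68.5 to 1169 CPM with P301S and from 45.6 to 501 CPM without. C4b, a complement component, went from 101 CPM to 468 CPM in P301S libraries and from 78.0 to 394 CPM in the others. Astrocyte marker genes went both ways in P301S libraries. Gpc5 was at 11788 CPM in nuclei with no Gfap UMI and 6066 CPM in those with 6 or more, and Slc1a2 at 9656 and 7045 CPM. Slc1a3 was at 2933 and 3878 CPM, and Aqp4 at 173 and 695 CPM. In the libraries without the transgene Gpc5 was at 12046 and 4440 CPM, Slc1a2 at 9046 and 6339 CPM, Slc1a3 at 2949 and 1572 CPM, and Aqp4 at 177 and 1533 CPM. The pooled levels are a description, since the steps share libraries, differ in depth and draw more of their upper nuclei from mice with a low share. Within a library, members with 1 Gfap UMI were therefore set against members with none. The pan-reactive sum, C4b and Aqp4 were higher with 1 Gfap UMI in 27 of 27 libraries, and the interferon sum in 26 of 27. Gpc5 was lower in 27 of 27, and Slc1a2 was higher in 13 and lower in 14.

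**Figure D2:**
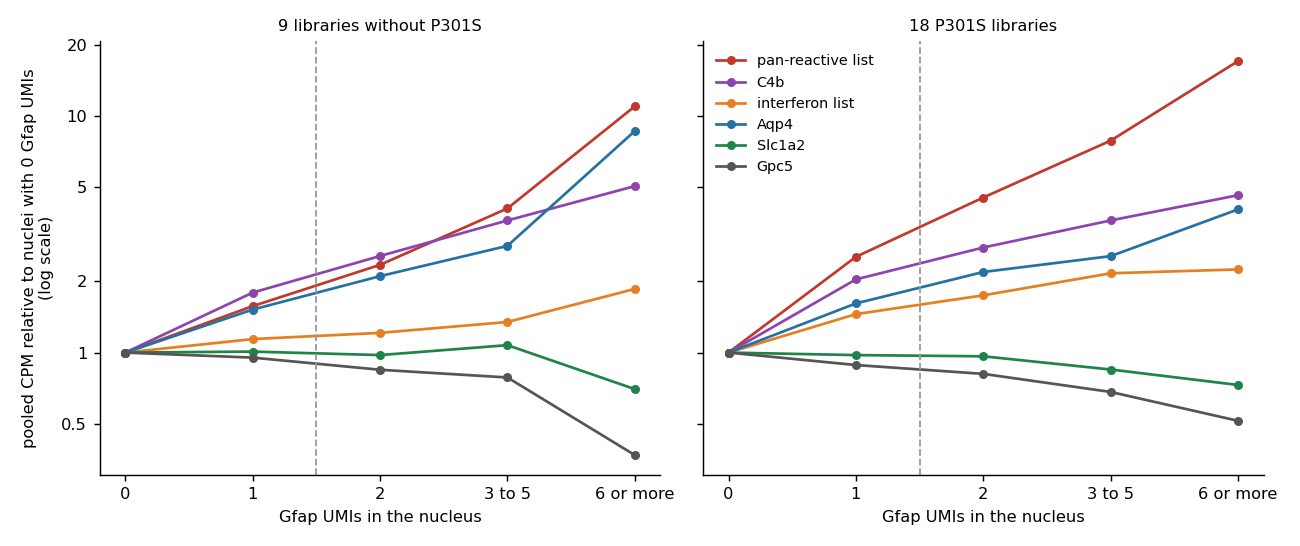
Pooled CPM of gene lists and single genes relative to nuclei with 0 Gfap UMIs (y axis, log scale) against the number of Gfap UMIs in the nucleus (x axis), for the 9 libraries without and the 18 with the P301S transgene, with a dashed line at the Gfap limit. In the P301S libraries the pan-reactive list goes from 68.5 CPM at 0 Gfap UMIs to 1169 CPM at 6 or more, while Gpc5 goes from 11788 to 6066 CPM.

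The low-Gfap nuclei were set against the high-Gfap nuclei of the same mice, and the genes of largest ratio are described. Because Gfap divides them and the nuclei come from the same libraries, these ratios carry no test, and a gene that reached 20 CPM on 1 side alone had to be higher there. Among 6892 genes with at least 20 CPM on one side, Cd44, an adhesion receptor, averaged 13.9 CPM in low-Gfap and 106 CPM in high-Gfap nuclei (7.59 times higher, in 26 of 27 libraries). Osmr, the oncostatin M receptor, averaged 22.7 and 139 CPM (6.11 times, 27 of 27 libraries), and Bcl3, a regulator of NF-kB, averaged 3.05 and 23.6 CPM (7.75 times, 20 of 27). In the Cgas+/+ mice alone Bcl3 averaged 0.206 CPM in low-Gfap and 0 CPM in high-Gfap nuclei. Vim, the partner filament of Gfap, was 4.65 times higher in high-Gfap nuclei over all libraries (23 of 27), but averaged 4.26 and 4.89 CPM in the Cgas+/+ mice and 9.54 and 49.0 CPM in the P301S Cgas+/+ mice. On the other side Unc13c, a gene of vesicle priming, averaged 100 CPM in low-Gfap and 22.0 CPM in high-Gfap nuclei (4.55 times higher, 27 of 27 libraries). Gabbr2, a GABA-B receptor subunit, averaged 196 and 62.2 CPM (3.15 times, 27 of 27), and Gli1, a transcription factor of the hedgehog pathway, and Car8, a carbonic anhydrase-related protein, were 2.84 and 2.78 times higher, each in 27 of 27.

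Between genotypes, counts were summed over the low-Gfap nuclei of each mouse and tested with edgeR's quasi-likelihood test with sex as a term, over 12255 genes. In P301S Cgas+/+ against Cgas+/+ mice no gene passed the adjusted threshold of 0.05 (0 of 12255, 0%, smallest adjusted p 0.557, for Kcnj9). At an unadjusted p under 0.05 there were 615 genes (5.02%), of which 335 (2.73%) were higher and 280 (2.28%) lower with the transgene. DESeq2 called 10 genes (0.0816%) at an adjusted p under 0.05 and limma-voom 0. The 9 higher of these 10 included Gbp2b, Oasl2, Ddx60, Nlrc5, Xaf1, Serpina3n, Plce1 and Gm28836, and the lower one was Kcnj9. No single gene is therefore called changed below. Counts of genes in a list use the unadjusted p under 0.05, while the p given for a gene is edgeR's adjusted p. P values measure the spread between these mice, and a summed level cannot tell fewer expressing nuclei from less RNA in each.

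Interferon-stimulated genes had higher values together in the low-Gfap nuclei of P301S Cgas+/+ mice. Of the 46 listed genes tested, 39 were higher at p under 0.05 and 0 lower, beside 2.73% and 2.28% of all genes. The median log2 fold change was 1.37, beside -0.01 over all genes tested, and the value was positive for all 46. The summed level of the list was 513, 589, 513, 461 and 525 CPM in the 5 Cgas+/+ mice. In the 6 P301S Cgas+/+ mice the lowest, median and highest sums were 574, 863 and 2082 CPM. The lowest of them overlapped the Cgas+/+ range and the other 5 lay above it. Without P301S Cgas+/+ replicate 5, the mouse with the highest sum, 22 of 43 tested genes of the list were under 0.05 and the median was 0.90. In nuclei with 0 Gfap UMIs 26 of 38 genes were higher, and limma-voom gave 21 of 46. The low-count filter ran over all groups of the fit, so genes scarce in Cgas+/+ mice could enter through P301S mice. With only the 2 groups compared, where the same holds, 25 of 31 were higher and the median was 1.03. With no filter, 44 of 65 were higher and the median was 1.45. There were 9 of 46 higher within version 3.0.2 (1.36% of all genes) and 32 of 48 within version 3.1.0 (4.48% of all genes). In the high-Gfap nuclei of the same mice 554 of 9751 tested genes (5.68%) were higher and 403 (4.13%) lower at p under 0.05. There 27 of 44 interferon genes were higher and the median was 1.61, and the pan-reactive list had 6 of 8 higher and a median of 2.46.

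Irf9, a member of the complex that binds the promoter element, was at 11.1, 5.92, 7.02, 7.69 and 8.24 CPM in the Cgas+/+ mice. In P301S Cgas+/+ mice its lowest, median and highest values were 9.36, 21.3 and 23.2 CPM. Of the 6, 5 lay above all Cgas+/+ mice (log2 fold change 1.09 ± 0.30, SE, edgeR, adjusted p = 0.719). It lies at chr14:55603571-55610030 on mm10.

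Among the effectors, Xaf1, a gene of interferon-induced cell death, was at 1.36, 0.789, 3.12, 0.905 and 1.06 CPM in the Cgas+/+ mice. The P301S Cgas+/+ values had a lowest, median and highest of 2.12, 7.40 and 19.6 CPM. One of the 6 lay within the control range (log2 fold change 2.75 ± 0.67, SE, edgeR, adjusted p = 0.656). Rnf213, a large ubiquitin ligase that acts against intracellular microbes, ran from 37.1 to 65.9 CPM in Cgas+/+ and from 64.7 to 190 CPM in P301S Cgas+/+ mice (log2 fold change 1.01 ± 0.32, SE, edgeR, adjusted p = 0.727). Herc6, the ligase that attaches the ubiquitin-like protein ISG15, ran from 34.7 to 61.5 CPM and from 58.7 to 162 CPM (log2 fold change 0.93 ± 0.28, SE, edgeR, adjusted p = 0.719).

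Gbp3, Gbp7 and Trim30a, whose promoters are printed above, lay at low levels in Cgas+/+ mice. Gbp3 was at 0.542 to 2.76 CPM in Cgas+/+ and 2.65 to 18.2 CPM in P301S Cgas+/+ mice (log2 fold change 2.02 ± 0.63, SE, edgeR, adjusted p = 0.725). Gbp7 was at 6.34 to 11.4 CPM and 8.13 to 33.1 CPM (log2 fold change 1.12 ± 0.37, SE, edgeR, adjusted p = 0.743). Trim30a was at 4.68 to 11.8 CPM and 7.95 to 94.8 CPM (log2 fold change 2.39 ± 0.77, SE, edgeR, adjusted p = 0.743). Each of the 3 overlapped between groups, in 1 to 3 of the 6 transgenic mice. Microglia nuclei held Trim30a at 234 CPM, above the 20.6 CPM of the low-Gfap nuclei, but Gbp3 at 1.91 CPM, below their 4.70 CPM. Adar, an RNA-editing enzyme on the same list, differed by 0.05 ± 0.13 (log2, SE, edgeR, adjusted p = 0.9996) and was at 58.4 to 91.6 CPM and 62.0 to 93.8 CPM.

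Transcripts of other cell types were counted in the same nuclei. The summed level of the 14 listed microglial genes was 82.4 to 128 CPM in Cgas+/+ mice and 85.6 to 207 CPM in P301S Cgas+/+ mice, and 0 of 11 tested passed p under 0.05 in either direction, with a median log2 fold change of 0.17. Replicate 5, with the highest interferon sum, also had the highest microglial sum, 207 CPM, while the other 5 lay between 85.6 and 106 CPM. Of the oligodendrocyte genes 7 of 11 tested were higher at p under 0.05 and 0 lower, with a median log2 fold change of 0.71. Of all genes 2.73% were higher and 2.28% lower, which also stand beside the other list counts over all these mice. Within version 3.0.2 0 of 11 oligodendrocyte genes were higher, with a median of 0.14, and within version 3.1.0 9 of 11 (4.48% of all genes). With the Scrublet doublets left out it was 2 of 10 (2.77% of all genes) with a median of 0.46. The count was 3 without replicate 4 of Cgas+/+ or replicate 6 of P301S Cgas+/+, 4 without P301S Cgas+/+ replicate 3 or 5, and 5 to 10 without any other single mouse. The summed level of the 12 listed oligodendrocyte genes was 162 to 285 CPM in Cgas+/+ and 157 to 539 CPM in P301S Cgas+/+ mice. Of the 14 neuronal genes tested 0 were higher and 3 lower, with a median of -0.45, and leaving out 1 mouse gave 0 (without Cgas+/+ replicate 4) to 6 lower (without its replicate 2), with 1 without replicate 1 or 5 of Cgas+/+ or replicate 5 of P301S Cgas+/+. In the 3.0.2 libraries 1 of the neuronal genes was lower, beside 1.68% of all genes, with a median of 0.02. In the 3.1.0 libraries 8 of 15 were lower, beside 3.54% of all genes, with a median of -0.74. The part of these other transcripts in the interferon values was not tested. Of the other marker lists, oligodendrocyte precursors had 0 of 7 tested genes under p 0.05, endothelial cells 0 of 4, mural cells and fibroblasts 0 of 2, choroid plexus and ependyma 0 of 4, granule neurons 0 of 4 and stem cells 1 of 4, which was higher. With nuclei that held 0 UMIs of the neuronal and oligodendrocyte genes of the rule, 35 of 41 interferon genes were higher at p under 0.05. So were 2 of 10 oligodendrocyte genes, whose median was 0.53, and 2.55% of all genes.

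**Figure D3:**
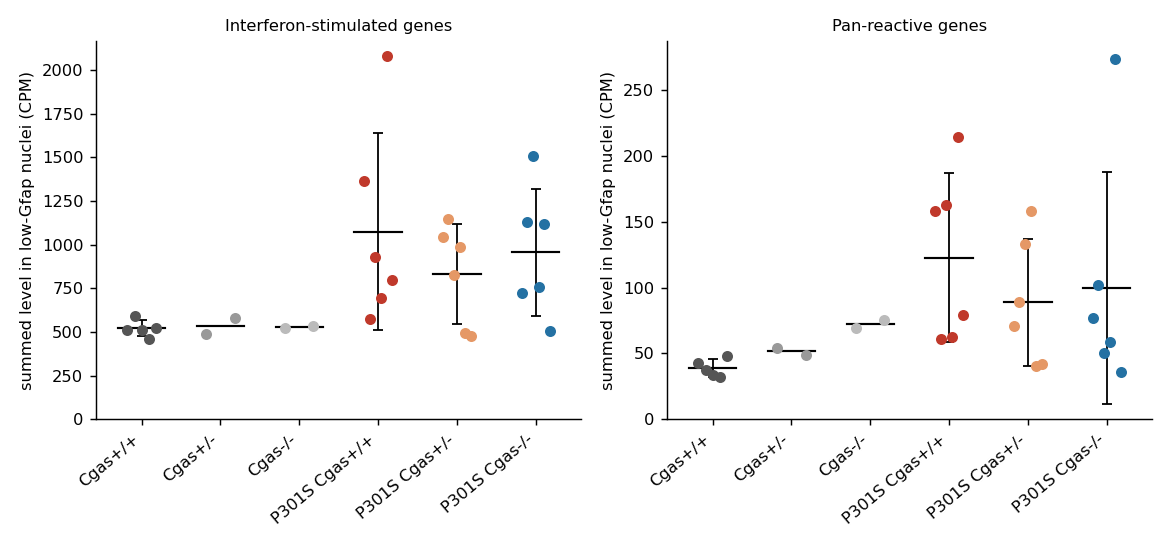
Summed level (y axis, CPM) of the interferon list (left) and the pan-reactive list (right) in the low-Gfap nuclei of each mouse by genotype group (x axis), where points are mice, lines are means and error bars are SD for groups of more than 2 mice. The interferon sum lies between 461 and 589 CPM in the 5 Cgas+/+ mice and between 574 and 2082 CPM in the 6 P301S Cgas+/+ mice.

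Reactive genes were higher as well, at low levels. Of the 8 pan-reactive genes tested, 7 were higher in P301S Cgas+/+ mice at p under 0.05 and 0 lower, beside 2.73% and 2.28% of all genes, with a median log2 fold change of 1.66. It was 3 of 8 within version 3.0.2 (1.36% of all genes higher), 6 of 8 within version 3.1.0 (4.48%) and 4 of 8 with limma-voom (2.13%). In nuclei with 0 UMIs of the neuronal and oligodendrocyte genes of the rule it was 3 of 7 (2.55%). With only the 2 groups compared it was 6 of 6, and with no low-count filter 7 of 12. Members still differed in Gfap, at a mean of 81.1 CPM in P301S Cgas+/+ and 49.7 CPM in Cgas+/+ mice. In nuclei with 0 Gfap UMIs 4 of 6 were higher (2.13%), with a median of 1.30. The sum over the 12 listed genes ran from 32.1 to 48.1 CPM in Cgas+/+ and from 60.7 to 214 CPM in P301S Cgas+/+ mice, with no overlap. Without P301S Cgas+/+ replicate 5, 4 of the 8 genes were under 0.05 and the median was 1.12. Serpina3n, a secreted protease inhibitor, was at 0.813, 0.394, 0.390, 0.905 and 0.634 CPM in the Cgas+/+ mice. Its lowest, median and highest values in P301S Cgas+/+ mice were 1.06, 7.65 and 22.7 CPM. All 6 lay above the controls, as they did for 0.31% of all genes (log2 fold change 3.60 ± 0.81, SE, edgeR, adjusted p = 0.557). Osmr was at 4.73 to 19.2 CPM in Cgas+/+ and 15.4 to 69.6 CPM in P301S Cgas+/+ mice (log2 fold change 1.72 ± 0.55, SE, edgeR, adjusted p = 0.743). Aspg, an asparaginase, was at 5.85 to 12.2 and 11 to 54.5 CPM (log2 fold change 1.48 ± 0.46, SE, edgeR, adjusted p = 0.725). Cd44 overlapped more, with 4.98 to 7.49 CPM and 5.42 to 48.1 CPM (log2 fold change 1.75 ± 0.74, SE, edgeR, adjusted p = 0.965).

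Of the 9 genes of the A1 list, linked to neuroinflammatory astrocytes, 5 passed the low-count filter, which levels in P301S mice could help them pass. Of these 5, 3 were higher and 0 lower, beside 2.73% and 2.28% of all genes. Their median log2 fold change was 1.09. With limma-voom 1 of 5 was higher. With only the 2 groups compared 2 of 4 were higher, with a median of 0.61. With no low-count filter 4 of 8 were higher, with a median of 0.88. In nuclei with 0 Gfap UMIs 2 of 4 were higher, beside 2.13% of all genes, with a median of 0.53. In the 3.0.2 libraries 0 of 5 were higher. Without P301S Cgas+/+ replicate 1 it was 2 of 4 with a median of 0.34, while without its replicate 5 the median was 0.62. C4b was at 94.3, 79.3, 71.0, 57.9 and 65.3 CPM in the Cgas+/+ mice. The lowest, median and highest P301S Cgas+/+ values were 96.6, 144 and 272 CPM. None overlapped the controls, and 0.31% of all genes lay wholly above them (log2 fold change 1.09 ± 0.34, SE, edgeR, adjusted p = 0.727). Ggta1, an enzyme of glycan synthesis, was at 17.2 to 46.0 CPM and 23.3 to 142 CPM (log2 fold change 1.55 ± 0.56, SE, edgeR, adjusted p = 0.876). Serping1, the inhibitor of complement C1, was at 0.905 to 2.37 CPM and 1.89 to 11.3 CPM (log2 fold change 1.81 ± 0.66, SE, edgeR, adjusted p = 0.873). Only 1 of the 12 genes of the A2 list, linked to repair after ischaemia, could be tested: Cd109, with a log2 fold change of 1.62. Of the disease-associated astrocyte list, 5 of 20 were higher and 0 lower, beside 2.73% and 2.28% of all genes, with a median of 0.19. Without replicate 4 of Cgas+/+ there were 3 higher, and without its replicate 5 there were 3 higher and 1 lower, with a median of 0.11. The median was 0.056 without P301S Cgas+/+ replicate 1, 0.06 with limma-voom and up to 0.26 with 1 mouse left out.

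Stat3, Csf1, Cebpd and Cxcl10 are described next as single genes picked from their lists. Of 39 astrocyte transcription factors tested, 2 were higher and 1 lower at p under 0.05, beside 2.73% and 2.28% of all genes. The median log2 fold change of that list was -0.02. Stat3, the factor that drives reactive astrocyte genes after cytokine signalling, was at 107, 93.9, 109, 103 and 114 CPM in the Cgas+/+ mice. In P301S Cgas+/+ mice the lowest, median and highest values were 137, 158 and 254 CPM. The groups did not overlap, and 0.31% of all genes lay wholly above the controls (log2 fold change 0.70 ± 0.17, SE, edgeR, adjusted p = 0.656). Csf1, a growth factor for microglia, was at 29.4 to 35.9 CPM in Cgas+/+ and 44.3 to 83.3 CPM in P301S Cgas+/+ mice, again without overlap (log2 fold change 0.86 ± 0.28, SE, edgeR, adjusted p = 0.743). Cebpd, a factor of the acute-phase response, was at 1.17 to 6.70 CPM and 5.83 to 18.9 CPM (log2 fold change 1.30 ± 0.40, SE, edgeR, adjusted p = 0.719). Cxcl10, a chemokine for T cells, had no UMI in 2 Cgas+/+ mice and was at 0 to 12.6 CPM in P301S Cgas+/+ mice, a fitted log2 fold change of 3.22 ± 1.11 that depends on the prior count (SE, edgeR, adjusted p = 0.824). Of 31 complement and cytokine genes in the data, 14 passed the low-count filter. In all, 4 of the 14 were higher at p under 0.05 and 0 lower, beside 2.73% and 2.28% of all genes. The lists share genes, so their counts are not separate results. C4b is on this list and on the A1 list, and Osmr is on the pan-reactive and the disease-associated astrocyte lists.

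Across all genes, every P301S Cgas+/+ mouse lay above every Cgas+/+ mouse for 38 genes (0.31%) and below for 24 (0.196%). Nlrc5, Tap1, H2-K1 and Samd9l were among the interferon genes of the 38, where Nlrc5, Tap1 and H2-K1 serve antigen presentation. Erbin, a scaffold protein of cell junctions, was another, at 130 to 167 CPM in Cgas+/+ and 171 to 227 CPM in P301S Cgas+/+ mice.

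**Figure D4:**
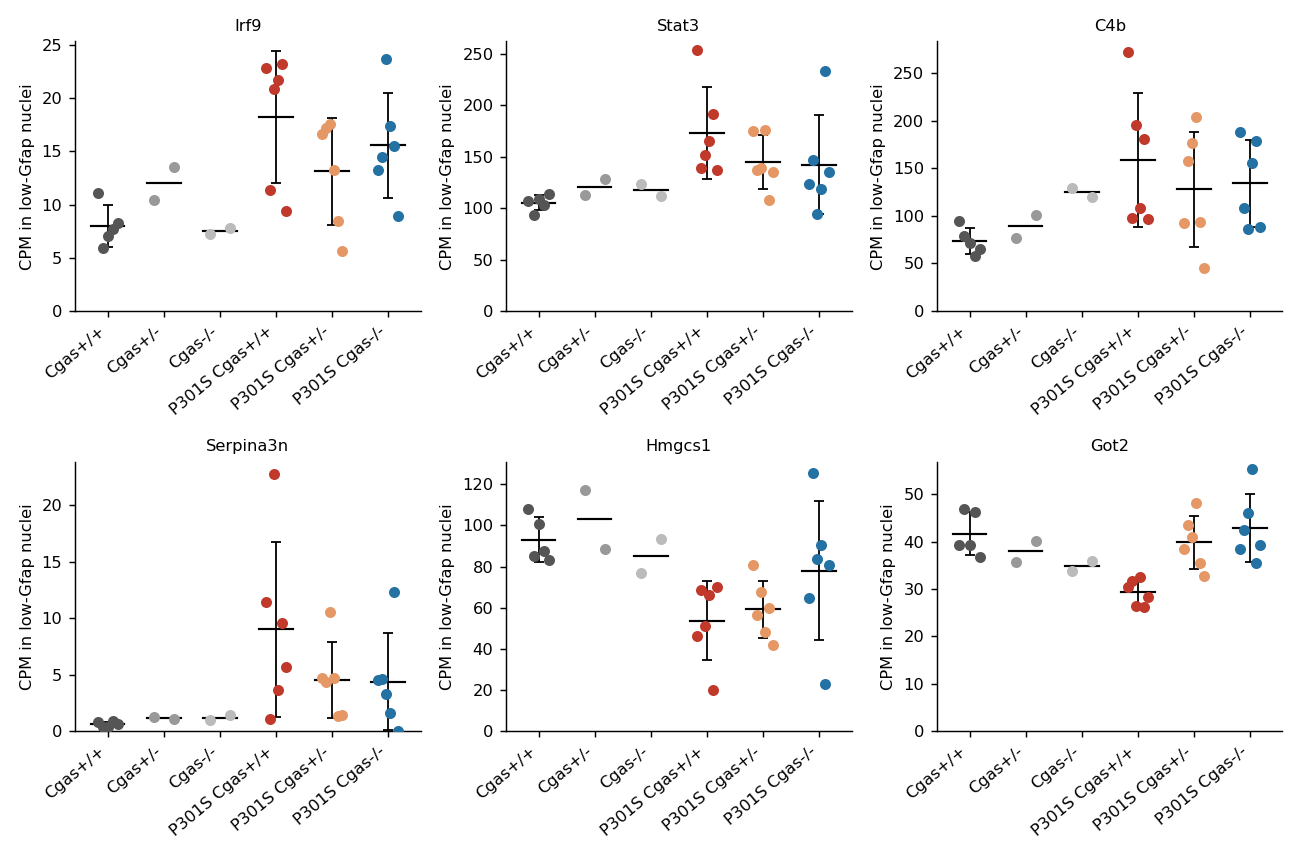
Level (y axis, CPM) of Irf9, Stat3, C4b, Serpina3n, Hmgcs1 and Got2 in the low-Gfap nuclei of each mouse by genotype group (x axis), where points are mice, lines are means and error bars are SD for groups of more than 2 mice. Stat3 lies between 93.9 and 114 CPM in the 5 Cgas+/+ mice and between 137 and 254 CPM in the 6 P301S Cgas+/+ mice.

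Of 21 tested genes of cholesterol supply, 0 were higher and 4 lower at p under 0.05 in the tau comparison, beside 2.28% of all genes lower, with a median log2 fold change of -0.35. In the 3.0.2 libraries 1 of 22 was higher and 1 lower, beside 1.36% and 1.68% of all genes. In the 3.1.0 libraries 0 of 21 were higher and 1 lower, beside 4.48% and 3.54% of all genes. Without 1 mouse the lower genes numbered 2 (P301S Cgas+/+ replicate 1 or 5 left out) to 7 (its replicate 2 or 6 left out), and the median lay between -0.46 and -0.21, the latter without replicate 5. Hmgcs1, an early enzyme of cholesterol synthesis, was at 108, 85.2, 101, 87.3 and 83.2 CPM in the Cgas+/+ mice. In the P301S Cgas+/+ mice its lowest, median and highest values were 19.9, 58.5 and 70.2 CPM. All 6 lay below the controls, as they did for 0.196% of all genes (log2 fold change -0.81 ± 0.31, SE, edgeR, adjusted p = 0.926). Dhcr7, an enzyme of the last steps, was at 29.3 to 35.1 and 18.2 to 33.4 CPM (log2 fold change -0.44 ± 0.17, SE, edgeR, adjusted p = 0.926). In the high-Gfap nuclei of the same mice 10 of 20 genes of the list were lower and 1 higher, with a median of -0.66. Of all genes tested there 4.13% were lower and 5.68% higher. Whether the 2 kinds of nuclei differ in this was not tested.

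Of 21 stress and immediate early genes 0 were higher and 4 lower at p under 0.05, beside 2.73% and 2.28% of all genes, and 7 had a positive log2 fold change. Their median was -0.13, and from -0.39 (without P301S Cgas+/+ replicate 1) to -0.02 (without its replicate 4) with 1 mouse left out. It was -0.04 without Cgas+/+ replicate 4, -0.07 without P301S Cgas+/+ replicate 5 and -0.22 without Cgas+/+ replicate 5. In the 3.0.2 libraries 3 of 20 were higher and 0 lower, beside 1.36% and 1.68% of all genes. In the high-Gfap nuclei 3 of 19 were higher and 0 lower, beside 5.68% and 4.13% of all genes. The lower genes numbered 1 without P301S Cgas+/+ replicate 6, 2 without its replicate 5 or Cgas+/+ replicate 1 or 4, and 3 to 5 without any other single mouse. Among the 4 was Hspa8, a chaperone, at 17.7 to 34.4 CPM in Cgas+/+ and 7.69 to 24.6 CPM in P301S Cgas+/+ mice (log2 fold change -0.66 ± 0.23, SE, edgeR, adjusted p = 0.836). Kcnj9, Got2 and Rpl18 were among the genes of smallest p with lower values. Kcnj9, a potassium channel subunit, was at 10.6, 6.31, 15.6, 12.7 and 13.1 CPM in Cgas+/+ mice. The P301S Cgas+/+ values had a lowest, median and highest of 2.98, 4.91 and 7.57 CPM. It overlapped in 1 mouse (log2 fold change -1.24 ± 0.26, SE, edgeR, adjusted p = 0.557). Got2, the mitochondrial aspartate transaminase, was at 36.7 to 46.9 CPM and 26.2 to 32.5 CPM (log2 fold change -0.51 ± 0.12, SE, edgeR, adjusted p = 0.656). Rpl18, a ribosomal protein, was at 10.1 to 15.0 CPM and 4.68 to 8.13 CPM (log2 fold change -0.95 ± 0.21, SE, edgeR, adjusted p = 0.557). Neither gene overlapped between the groups, and 24 of all genes (0.196%) lay wholly below the controls in this way.

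Lists of astrocyte tasks were counted beside the 2.73% of all genes that were higher and 2.28% lower at p under 0.05. Of 16 genes of glutamate and transmitter uptake 1 was higher and 1 lower at p under 0.05, with a median of -0.07. Slc1a2 was at 8464 to 9690 CPM in Cgas+/+ and 7822 to 9758 CPM in P301S Cgas+/+ mice (log2 fold change -0.08 ± 0.10, SE, edgeR, adjusted p = 0.9996). Of 16 genes of ion and water transport 2 were higher and 3 lower, with a median of -0.12. Aqp4 was at 174 to 196 CPM in Cgas+/+ and at a median of 236 CPM in P301S Cgas+/+ mice, with 5 of 6 above the controls (log2 fold change 0.29 ± 0.13, SE, edgeR, adjusted p = 0.970). Of 7 tested genes of the cGAS-STING pathway 1 was higher, Ikbke, at 8.68 to 12.1 CPM and 10.9 to 20.9 CPM (log2 fold change 0.56 ± 0.27, SE, edgeR, adjusted p = 0.987), and 0 lower. Energy metabolism had 0 higher and 0 lower of 18. Synaptogenic secreted factors had 0 higher and 2 lower of 17, adhesion genes 1 and 1 of 32, receptors 1 and 0 of 34 and astrocyte transcription factors 2 and 1 of 39.

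Loss of Cgas on the P301S background was compared in the same fit, against the same P301S Cgas+/+ mice, so its values are not independent of the tau comparison. In P301S Cgas-/- against P301S Cgas+/+ mice edgeR called 0 of 12255 genes (0%), DESeq2 called 2 (0.0163%) and limma-voom 0. At an unadjusted p under 0.05 there were 329 higher (2.68%) and 365 lower (2.98%). The smallest adjusted p was 0.584, for Stk32a. Both genes that DESeq2 called, Car12 and Gm29478, were lower.

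The counts of interferon genes at p under 0.05 with loss of Cgas were near the shares of all genes. Of the 46 tested, 0 were higher and 0 lower, beside 2.68% and 2.98% of all genes. With no low-count filter 0 of 65 were higher and 2 lower, beside 2.24% and 2.4% of all genes. The 46 genes had a median log2 fold change of -0.24 beside -0.00 over all genes. The median was 0.07 with limma-voom, 0.09 within version 3.0.2 and -0.36 within version 3.1.0. The sums in the 6 P301S Cgas-/- mice had a lowest, median and highest of 504, 936 and 1506 CPM, beside 574, 863 and 2082 CPM in P301S Cgas+/+ mice, so the groups overlapped and the median was higher in P301S Cgas-/- mice. Without the transgene the sums were 522 and 533 CPM in the Cgas-/- mice and 490 and 581 CPM in the Cgas+/- mice, all within the Cgas+/+ range. Leaving out 1 mouse at a time put the median log2 fold change between -0.48 and 0.26, the latter without P301S Cgas+/+ replicate 5, so its sign rested on that mouse. Irf9 was at 8.94 to 23.7 CPM in P301S Cgas-/- mice (log2 fold change -0.21 ± 0.27, SE, edgeR, adjusted p = 0.982). Xaf1 was at 2.29 to 17.1 CPM (log2 fold change -0.77 ± 0.54, SE, edgeR, adjusted p = 0.922) and Herc6 at 37.3 to 95.3 CPM (log2 fold change -0.43 ± 0.26, SE, edgeR, adjusted p = 0.903). In the high-Gfap nuclei the median of the list was 0.02.

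Of 8 pan-reactive genes 0 were higher and 0 lower at p under 0.05, beside 2.68% and 2.98% of all genes, with a median of -0.38. With 1 mouse left out it moved from -0.88 with 3 of 8 lower (without P301S Cgas-/- replicate 5) to 0.13 with 0 lower (without P301S Cgas+/+ replicate 5). Of the 5 A1 genes tested 1 was higher and 0 lower, with a median of -0.44, which was -0.0023 over 4 genes without P301S Cgas+/+ replicate 1 and -0.17 without its replicate 5. The higher one was Fbln5, a protein of elastic fibres (log2 fold change 0.75 ± 0.29, SE, edgeR, adjusted p = 0.803). Serpina3n was at 0 to 12.3 CPM in P301S Cgas-/- mice (log2 fold change -0.93 ± 0.61, SE, edgeR, adjusted p = 0.915). C4b was at 86.1 to 188 CPM (log2 fold change -0.23 ± 0.31, SE, edgeR, adjusted p = 0.984). Stat3 was at 94.7 to 234 CPM (log2 fold change -0.30 ± 0.16, SE, edgeR, adjusted p = 0.887). Of the 7 tested genes of the cGAS-STING pathway, 0 were higher and 1 lower. That gene was Ikbke, a kinase that activates interferon regulatory factors, at 10.9 to 20.9 CPM in P301S Cgas+/+ and 6.22 to 15.9 CPM in P301S Cgas-/- mice (log2 fold change -0.56 ± 0.26, SE, edgeR, adjusted p = 0.867).

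The genes with the smallest p in this comparison were others. Stk32a, a kinase, was at 10.7 to 29.7 CPM in P301S Cgas+/+ mice, with a median of 16.3. In P301S Cgas-/- mice it was at 2.33 to 11 CPM, with a median of 5.96 (log2 fold change -1.49 ± 0.33, SE, edgeR, adjusted p = 0.584). Car12, a carbonic anhydrase, was at 1.90 to 22.7 CPM and 0.389 to 5.03 CPM (log2 fold change -2.52 ± 0.56, SE, edgeR, adjusted p = 0.584). Choroid plexus and ependymal genes moved with it: 2 of 4 tested were lower at p under 0.05 and 0 higher, with a median of -2.47. Of all genes 2.98% were lower and 2.68% higher, which also stand beside the other list counts of this comparison. The sum of the 10 listed choroid plexus and ependymal genes had a median of 61.2 CPM in P301S Cgas+/+ and 9.88 CPM in P301S Cgas-/- mice. Replicates 3, 5 and 6 of P301S Cgas+/+ held that sum at 142, 183 and 112 CPM and had the 3 highest Car12 levels of the group, up to 22.7 CPM, while the other 3 mice held 7.69 to 10.8 CPM of that sum and 1.90 to 7.23 CPM of Car12. The part of these transcripts in the deletion values was not tested. Of the other marker lists, oligodendrocytes had 1 of 11 tested genes lower, granule neurons 1 of 4 lower, mural cells and fibroblasts 1 of 2 higher, and microglia, neurons, oligodendrocyte precursors, endothelial cells and stem cells had 0 in either direction. Kcnk2, the potassium channel TREK-1, was at 110 to 172 CPM and 61.3 to 123 CPM (log2 fold change -0.58 ± 0.14, SE, edgeR, adjusted p = 0.584). Got2 stood at 35.6 to 55.4 CPM in P301S Cgas-/- mice (log2 fold change 0.51 ± 0.12, SE, edgeR, adjusted p = 0.584). Tmbim6, a protein of the endoplasmic reticulum, stood at 37.7 to 58.3 CPM against 30.3 to 37.4 CPM (log2 fold change 0.48 ± 0.12, SE, edgeR, adjusted p = 0.584). Both genes were picked by their small p. How many of all genes kept these groups apart was not counted. Of the 21 cholesterol genes 1 was higher and 1 lower, with a median of 0.20. Leaving out 1 mouse gave 0 to 9 higher, the most without P301S Cgas-/- replicate 5 (3.28% of all genes higher there). Without P301S Cgas+/+ replicate 5 it was 0 higher and 0 lower, with a median of 0.10. Hmgcs1 was at 22.8 to 126 CPM (log2 fold change 0.54 ± 0.30, SE, edgeR, adjusted p = 0.887). Of 21 stress genes 3 were higher and 0 lower (1 higher without P301S Cgas-/- replicate 2, and 5 without its replicate 5 or 6 or P301S Cgas+/+ replicate 1), among them Hspa8 (log2 fold change 0.78 ± 0.23, SE, edgeR, adjusted p = 0.677).

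**Figure D5:**
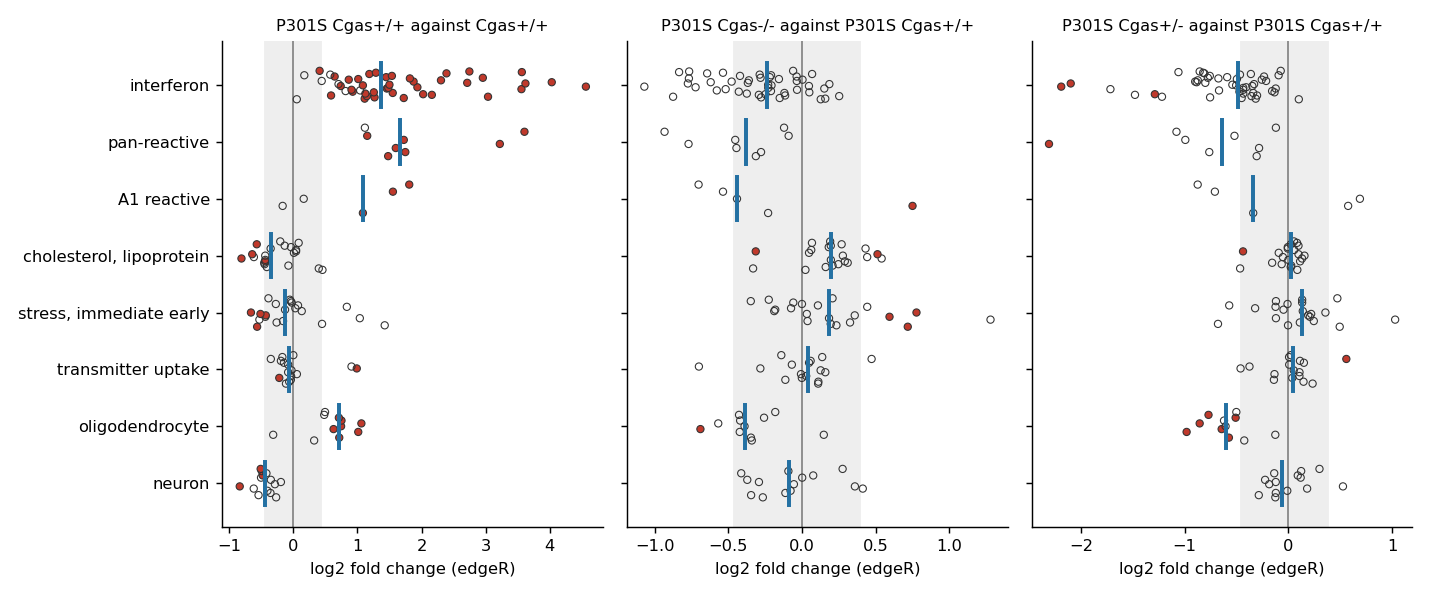
Log2 fold change (x axis) of the tested genes of each list (y axis) in the low-Gfap nuclei, for the tau, deletion and heterozygous comparisons, where each point is a gene (filled at an unadjusted p under 0.05), the blue bar is the list's median, the grey line the median of all genes and the grey band the span from their 5th to 95th percentile. The interferon list has a median of 1.37 in the tau comparison, -0.24 in the deletion comparison and -0.48 in the heterozygous comparison.

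Loss of 1 copy of Cgas was compared in the same fit, again against the P301S Cgas+/+ mice. In P301S Cgas+/- against P301S Cgas+/+ mice edgeR called 0 of 12255 genes (0%), and DESeq2 and limma-voom also called 0. At an unadjusted p under 0.05, 271 (2.21%) were higher and 290 (2.37%) lower, with a smallest adjusted p of 0.841, for Rpa1. Of the 46 interferon genes 0 were higher and 3 lower, namely Gbp3, Iigp1 and Mx1, with a median log2 fold change of -0.48. Without P301S Cgas+/+ replicate 5 it was 0 lower with a median of -0.04, and limma-voom gave 0 lower with a median of -0.16. Leaving out replicate 1 of P301S Cgas+/+, or replicate 5 or 6 of P301S Cgas+/-, also gave 0 lower, while leaving out P301S Cgas+/+ replicate 2 gave 16 of 45 lower and a median of -0.71. The count was 5 to 7 without P301S Cgas+/+ replicate 6 or P301S Cgas+/- replicate 1, 2 or 4. The sums ran from 476 to 1148 CPM, and 2 of the 6 mice were within the 461 to 589 CPM of Cgas+/+ mice. In the 3.1.0 libraries 17 of 48 interferon genes were lower, beside 3.22% of all genes, with a median of -1.02. In the 3.0.2 libraries 0 of 46 were, beside 1.15% of all genes, and the median was 0.24. Of 11 oligodendrocyte genes 0 were higher and 6 lower, with 0 lower within version 3.0.2 and 1 (without P301S Cgas+/+ replicate 1) to 10 (without its replicate 2) on leaving out 1 mouse. It was 2 or 3 without replicate 3, 5 or 6 of P301S Cgas+/+ or replicate 4 or 5 of P301S Cgas+/-. The sum of the 12 listed genes, 201 to 264 CPM, lay within the 157 to 539 CPM of P301S Cgas+/+ mice. The part of these transcripts in the heterozygous values was not tested.

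Unc13c, which had the largest ratio of low-Gfap to high-Gfap nuclei among the 6892 genes with at least 20 CPM on one side, had its own order across genotypes. It was at 60.5, 58.8, 82.7, 62.0 and 68.6 CPM in the 5 Cgas+/+ mice. The 2 Cgas-/- mice held 20.5 and 24.9 CPM and the 2 Cgas+/- mice 100 and 69.3 CPM. With the transgene its lowest, median and highest values were 30.7, 68.9 and 115 CPM in P301S Cgas+/+ mice. They were 91.1, 158 and 185 CPM in P301S Cgas+/- and 55.0, 141 and 200 CPM in P301S Cgas-/- mice. The log2 fold change was 1.10 ± 0.26 with 1 copy lost (SE, edgeR, adjusted p = 0.841) and 1.03 ± 0.26 with both lost (SE, edgeR, adjusted p = 0.677). Fgf13, an intracellular FGF family member, stood at 481 to 582 CPM in P301S Cgas+/- and 262 to 496 CPM in P301S Cgas+/+ mice (log2 fold change 0.47 ± 0.13, SE, edgeR, adjusted p = 0.969).

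Whether the difference with Cgas loss itself differed with the transgene was asked with an interaction term over all 27 mice. No gene of 13201 (0%) passed in edgeR, 684 (5.18%) had an unadjusted p under 0.05, and DESeq2 called 8 (0.0606%). The smallest adjusted p was 0.130, reached by Unc13c (interaction 2.73 ± 0.49, log2, SE) and Kcnk2 (-1.17 ± 0.23, log2, SE). The arms without the transgene hold 2 male Cgas-/- mice, all of version 3.0.2, which limits this test.

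Mice with high interferon values in the low-Gfap nuclei had them in microglia nuclei too. Over the 18 P301S mice Pearson's r was 0.90 (permutation p = 2e-05, the smallest that 100000 resamples can give, adjusted p = 6e-05) and Spearman's rho 0.94 (permutation p = 2e-05, adjusted p = 3e-05). The adjusted values are over 3 relations chosen after the values were seen, the other two of which use the Gfap counts of the rule and are not given. Without the 2 mice farthest from the median r was 0.88. The values were 0.85, 0.96 and 0.93 within the groups and 0.96 and 0.92 within the versions. Both measures come from the same libraries and share their free RNA, whose part was not tested. High sums were not limited to these nuclei. In oligodendrocyte nuclei P301S Cgas+/+ replicates 5 and 1 held 1057 and 721 CPM, and P301S Cgas-/- replicate 3 held 943 CPM. The Cgas+/+ mice held 282 to 336 CPM there. In excitatory neuron nuclei the same mice held 378, 369 and 357 CPM, beside 251 to 275 CPM. The highest there was P301S Cgas-/- replicate 2, at 436 CPM. Relations with these nuclei were not tested.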

How the data were processed

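UMI counts per gene and nuclear barcode from 27 hippocampal libraries, 1 per mouse, were used as deposited. The authors sequenced 10x Chromium 3' v3 libraries, aligned reads to mm10 with Cell Ranger (version 3.1.0 per the labels, 3.0.2 or 3.1.0 per the file headers), counted pre-mRNA reads and called barcodes; the values are raw. No column of another sample was used. Of 31053 gene IDs, 30934 matched GENCODE vM21, which gave positions on mm10.

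Nuclei were chosen by the fixed limits given with the results, and counts were summed per mouse. The nuclei and gene lists were chosen with earlier results of these data known. Sums were tested with edgeR 4.0.16 (R 4.3.3, TMM, filterByExpr, robust quasi-likelihood fit, sex as a term, Benjamini-Hochberg adjustment over all genes tested, threshold 0.05) over the 23 mice of Cgas+/+ and the 3 P301S groups, and over all 27 for the interaction. The 14 genes of the rule entered library sizes but not the test across genes. The tau comparison sets P301S Cgas+/+ against Cgas+/+ mice, and the deletion and heterozygous comparisons set P301S Cgas-/- and P301S Cgas+/- against P301S Cgas+/+ mice; all 3 share that group. Shares were compared over mice by exact two-sided permutation (scipy 1.17.1), adjusted over 9 tests that include the Gfap level, which restates the share. For equal depth each nucleus with at least 1500 UMIs was thinned to 1500, which kept 25077 of 25374. CPM is per 1000000 UMIs of the summed nuclei, with a pseudocount of 1 on the log2 scale. Correlations used 100000 permutations.

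Named genes were, per comparison, the 5 of smallest p in each direction, per list the 3 most abundant and the 3 of smallest p in the tau comparison, the genes of the rule, Cgas, and the 10 of largest ratio between low and high Gfap in each direction. Genes that separated the groups of the tau comparison without overlap, those called by DESeq2, those of the interaction and the 3 with printed promoters were named after their values were seen. Lists are described by counts and medians, with no set test. Scripts were tested on simulated data. Alternatives were DESeq2 1.42.0, limma-voom (limma 3.58.1), RLE size factors, no low-count filter, only the groups compared, no sex term, other limits on the nuclei, Scrublet (scanpy 1.11.5, at 0.8% per 1000 barcodes) and leaving out each mouse. The software version, as a term or as separate sets, was added after seeing the data. Doublets were not removed otherwise. Some genes are not reported here by name, although they count in the lists.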

Additional observations from a re-analysis of the deposited data

Results flagged for a closer look

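In 88 sets of 4 to 6 mice, the gap from the highest or lowest mouse to the next was compared with Dixon's critical value. Chance alone passes it in about 1 set in 20, and 12 sets passed here.

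The control mouse Cgas+/+ replicate 2 had the lowest share of low-Gfap nuclei, 85.1%, while the other 4 lay between 93.6% and 95.9%, and its Gfap level over all astrocyte nuclei was 197 CPM against 78.1 to 101 CPM. It still lay above every P301S Cgas+/+ mouse in the share. P301S Cgas+/+ replicate 5 had the highest summed microglial genes, 207 CPM against 85.6 to 106 CPM. In Cgas+/+ replicate 3 Xaf1 was at 3.12 CPM against 0.789 to 1.36 CPM, and in P301S Cgas-/- replicate 3 it was at 17.1 CPM against 2.29 to 7.06 CPM.

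P301S Cgas-/- replicate 5 had a pan-reactive sum of 274 CPM against 35.8 to 102 CPM and Serpina3n at 12.3 CPM against 0 to 4.59 CPM. In P301S Cgas+/- replicate 3 Serpina3n was at 10.5 CPM against 1.33 to 4.75 CPM, and the sum of choroid plexus and ependymal genes was 142 CPM against 5.71 to 52.7 CPM. That sum was 46.9 CPM in P301S Cgas-/- replicate 4 against 5.03 to 14.5 CPM in the other 5. The same mouse had a cholesterol gene sum of 6581 CPM against 4806 to 5416 CPM, and Cgas+/+ replicate 4 had one of 6916 CPM against 5219 to 5692 CPM.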

How the results depend on the processing

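No paired analysis was possible because the labels give no replicate number shared between groups. The share of low-Gfap nuclei, that share at equal depth and the Gfap level kept their direction in the tau comparison under every alternative run, and both shares kept their side of 0.05 in all except those within 1 software version, whose sets are too small to pass 0.05. There the values were -23.3 points, -13.0 points and 1.53 (log2) for version 3.0.2 and -33.2, -16.7 and 2.52 for version 3.1.0. Leaving out 1 mouse gave -33.5 to -23.9 points, -17.7 to -11.6 points and 1.88 to 2.37 (log2). In the deletion comparison it gave 4.47 to 14.5 points, 2.62 to 8.71 points and -0.81 to -0.32, and the Gfap level reversed to 0.23 within version 3.0.2. In the heterozygous comparison it gave -1.55 to 10.8 points, -3.11 to 4.58 points and -0.82 to -0.07, so the sign of its shares rested on single mice (the share as counted was negative without P301S Cgas+/+ replicate 3 or P301S Cgas+/- replicate 1, 5 or 6), and the share at equal depth reversed to -0.84 points within version 3.1.0. The cause of these reversals was not tested.

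The edgeR count of 0 called genes became 10 (tau), 2 (deletion) and 8 (interaction) with DESeq2, 2 (tau) within version 3.0.2, 2 (tau) and 3 (deletion) within version 3.1.0, 1 of 13170 (tau) with no Gfap limit, and 1 (interaction) with the version as a term. Leaving out 1 mouse gave 0 called in the tau, deletion and heterozygous comparisons and 0 to 2 in the interaction, where leaving out replicate 1 of P301S Cgas+/+ gave 1, its replicate 3 gave 2 and replicate 4 of P301S Cgas-/- gave 1. Of 2019 alternatives for 81 values of named genes, 2005 kept direction and side of the threshold, 7 passed it where the value as reported did not and 7 reversed. The smallest adjusted p as reported (edgeR) were 0.557 (tau), 0.584 (deletion) and 0.841 (heterozygous). Few values could therefore change side, and the count mainly describes direction. Within version 3.0.2 the tau log2 fold changes that reversed were Slc1a5 -0.10, Slc38a1 -0.11, Slc2a1 0.0045, Tenm2 0.019, Snhg11 0.093 and Ctss -0.24, and with no Gfap limit Ifngr1 reversed to 0.042. Libraries with few low-Gfap nuclei, down to 122, limit the precision of scarce genes.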
